A study of Drosophila melanogaster with 24 samples.

Results

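Stwl, the product of the Drosophila gene stonewall (stwl), was profiled by CUT&RUN in whole ovaries. The regions described here are the intervals of the Stwl list of WT ovaries that were also occupied in bam GKD ovaries, held no BEAF, and lay away from the ends of protein-coding genes. They are called distal intervals below. They were chosen from the lists themselves: an interval had to lie on 2L, 2R, 3L, 3R or X and be narrower than 8000 bp. It had to overlap an interval of the Stwl bam GKD list by at least 1 bp and overlap no interval of the BEAF WT list. It also had to stay more than 500 bp from both ends of every protein-coding gene. Of the 8585 Stwl WT intervals, 8406 lay on these arms, 8325 were also narrow enough, 7061 were also occupied in bam GKD, 5069 of those held no BEAF, and 2480 met every condition. The distal intervals were thus 28.9% of the WT list and 35.1% of the 7061 narrow intervals shared by both genotypes, which are called constant here.

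Each group was 1 sample of Drosophila melanogaster ovary tissue: Stwl in WT, labelled as differentiated stages, Stwl in bam GKD, labelled as undifferentiated stages, and BEAF in WT, the last with the antibody DSHB AB_1553420. The Stwl antibody was made by the Jagannathan Lab. GKD is not spelled out in the labels, other profiles of that genotype are labelled BamRNAi, and no source used here gives the driver, the strain or the flies' ages. The other 21 of 24 samples (IgG, stwl GKD and histone marks) were not analysed here. The Stwl bam GKD list was larger than that of WT, with 12888 intervals covering 21.6 Mb against 8585 covering 11.7 Mb, and the BEAF list held 5092 intervals. The lists give coordinates on dm6 and no score or read count, so depth is unknown and width is the only measure of extent. Within each Stwl list neighbours lay at least 1001 bp apart, so a wide interval cannot be told from narrower ones joined over shorter gaps. With 1 list in each group there was no replicate error and no test between genotypes. The 95% intervals given below are exact (Clopper-Pearson for shares, from order statistics for medians) and cover counting error only.

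Stwl is a chromatin-associated protein of the MADF-BESS family, needed in the germline to keep stem cells and to make an oocyte. The bam gene encodes the switch that starts differentiation of germline stem cell daughters, and ovaries without it fill with undifferentiated germ cells. BEAF marks chromatin boundaries and sits mostly beside the starts of broadly active genes. Long introns and the spaces between genes are where Drosophila enhancers, silencers and most transposon insertions lie, so intervals away from gene ends cover a different part of the genome from promoters.

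Most distal intervals were narrow in WT, and most met a wider Stwl interval in bam GKD. In the WT list their widths ran from 176 bp to 7948 bp, with quartiles of 251 bp, 446.5 bp and 1158 bp. The bam GKD intervals that overlapped them, summed where more than 1 did, ran from 171 bp to 81541 bp, with quartiles of 939.8 bp, 2456 bp and 5766 bp. The bam GKD partner was a median of 3.90 times as wide as the WT interval (95% interval 3.63 to 4.16). It was at least 2 times as wide for 1683 distal intervals, or 67.9% (66.0 to 69.7), and at least 10 times as wide for 679, or 27.4%. Over all 7061 constant intervals these shares were 39.8% and 12.3%. The WT interval was the wider by at least 2 times for 139, or 5.60%, against 11.5% of all constant intervals, and 658 lay within 2-fold. The first share depended on how overlap was counted: with the centres of both intervals required to lie within 250 bp of each other, 887 intervals were left. The median bam GKD width was then 816 bp, and the bam GKD partner was at least 2 times as wide for 40.6%. The 39.8% of all constant intervals was counted with overlap of 1 bp and was not recomputed for centres. Whether distal intervals stand apart under this setting was therefore not tested. Width was not part of the rule beyond the limit of 8000 bp, but the rule favours narrow WT intervals and wide bam GKD partners. A narrow interval avoids gene ends and BEAF more easily than a wide one. A wide bam GKD interval more easily meets the overlap of 1 bp, which was required of every constant interval. The median width was 804 bp over the whole bam GKD list and 1876.5 bp over the 2136 partners. How much of the ratio comes from the rule was not tested.

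The ratio was set beside that of the other constant intervals, in the same pair of lists. For the 1992 constant intervals that held BEAF the median widths were 1395 bp in WT and 1392.5 bp in bam GKD, and the median ratio was 0.952 (0.938 to 0.969). For the 2589 at gene ends without BEAF they were 843 bp and 1248 bp, and the ratio was 1.23 (1.19 to 1.29). The bam GKD partner was at least 2 times as wide for 14.4% (12.8 to 16) of those with BEAF and for 32.5% (30.7 to 34.4) of those at gene ends. The 3 classes therefore followed one order, with distal intervals at the top. The 95% intervals of counting error did not meet, but they treat intervals of 1 list as independent. Of the distal intervals, 635 (25.6%) shared a bam GKD interval with another. With 1 distal interval kept for each bam GKD interval the distal share was 62.2%, outside its own 95% interval. Of the distal intervals 1762, or 71.0%, lay wholly inside 1 bam GKD interval, against 22.3% of those with BEAF and 41.7% of those at gene ends.

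**Figure D1:**
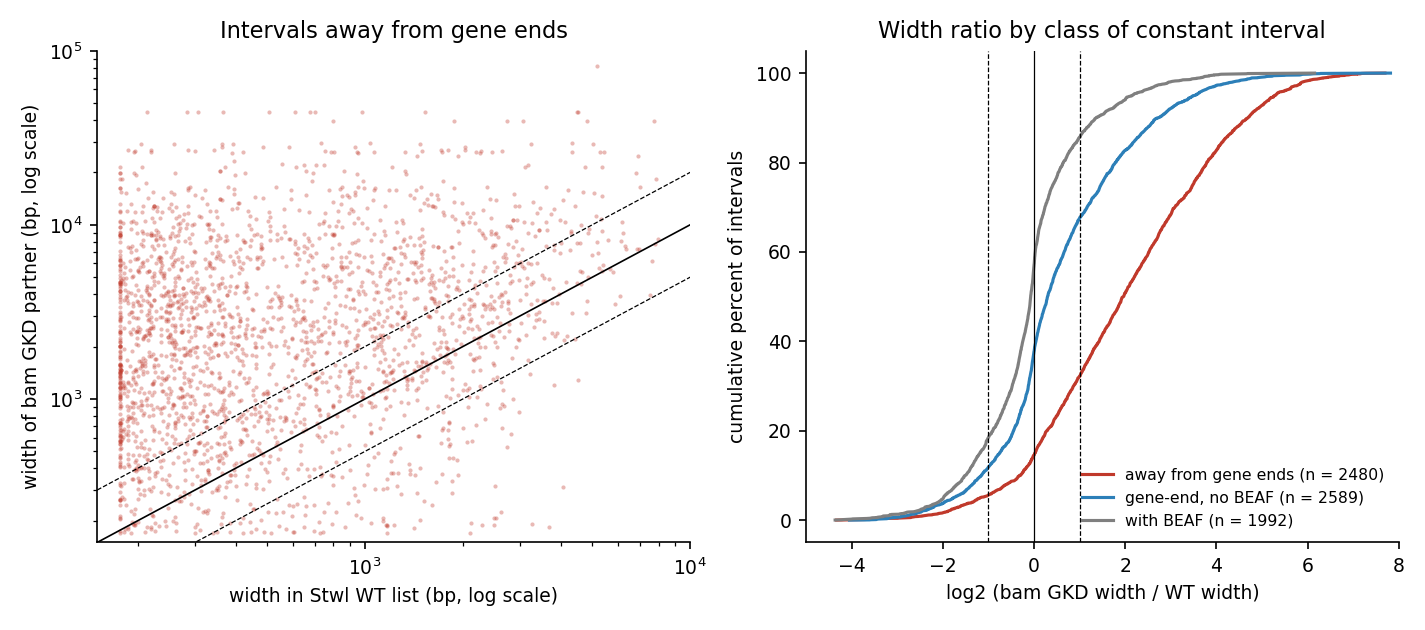
Left, width of each of the 2480 distal intervals in the WT list against that of its bam GKD partner (bp, both axes on a log scale), with a solid line at equal width and dashed lines at 2-fold. Right, cumulative percent of intervals against the log2 ratio of bam GKD to WT width for the 3 classes of constant interval. Most points lie above the upper dashed line (67.9%), and the red curve of the distal intervals runs to the right of the others.

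Intervals of like width in WT were then compared, because the distal ones were the narrowest. Among WT intervals from 500 bp to below 1000 bp, the bam GKD partner was at least 2 times as wide for 63.8% of 448 distal intervals (59.2 to 68.3). It was so for 25.9% of 649 at gene ends and 15.9% of 453 with BEAF. Among those from 2000 bp to below 4000 bp the shares were 35.7% of 238 (29.6 to 42.2), 17.5% of 371 and 11.6% of 482. In the narrowest class, below 250 bp, they were 87.0%, 61.2% and 33.3%. For distal intervals the share was lower in each wider class below 4000 bp, and in each of the 6 classes of width the distal intervals had the highest share. The list's smallest width, 176 bp, was shared by 154 distal intervals (6.21%) and by 4.16% of the whole WT list.

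**Figure D2:**
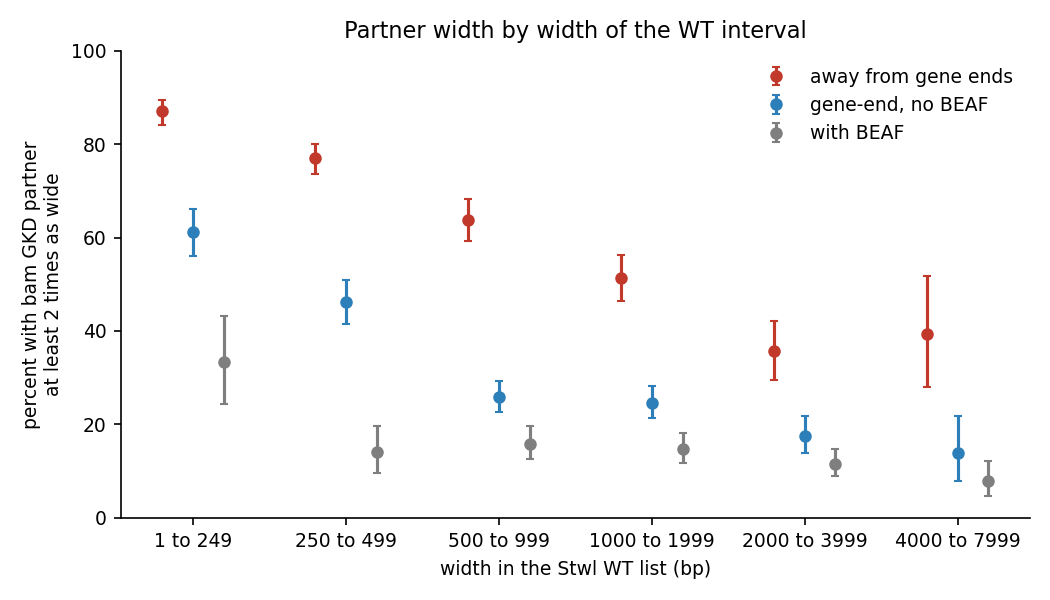
Percent of constant intervals whose bam GKD partner was at least 2 times as wide, by width of the interval in the WT list (bp). Points are shares, bars are exact 95% intervals of counting error, and colours are the 3 classes. Distal intervals lie above the other classes in every class of width, from 87.0% below 250 bp to 39.4% at 4000 bp or more.

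The same steps were taken from the other side, starting with narrow bam GKD intervals. They gave 1753 bam GKD intervals that overlapped Stwl WT, held no BEAF and avoided gene ends. Their median width was 1213 bp, and that of their WT partners was 607 bp. The WT partner was a median of 0.599 times as wide (0.555 to 0.635), and was less than or equal to 1/2 as wide for 44.4% and at least 2 times as wide for 17.7%. By the median, the bam GKD interval was thus the wider from either starting list, by a smaller factor when the choice was made in bam GKD. No share over all 6309 narrow bam GKD intervals shared by both genotypes is given here. The 44.4% and 17.7% therefore cannot be read as particular to the 1753. This count from the bam GKD side was added after the data were seen.

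The 2480 distal intervals met 2136 bam GKD intervals. Those partners had a median width of 1876.5 bp, and Stwl WT intervals of any kind covered a median of 40.5% of each. The partners of intervals with BEAF were covered to 98.1% and those of intervals at gene ends to 76.8%. Most partners, 1871, held a single distal interval, 201 held 2, 43 held 3 and 21 held 4 or more. In all, 635 distal intervals (25.6%) shared a bam GKD interval with another. The rule did not place the bam GKD partners directly, but each had to overlap an interval clear of gene ends and BEAF. Of the partners, 1647 (77.1%) were clear of both too, which that overlap favours. A further 436 (20.4%) reached a gene end window and 161 (7.54%) overlapped BEAF, with some doing both. For the 1902 distal intervals whose partners stayed clear of gene ends the median ratio was 2.77, and for the 578 whose partner reached one it was 12.1, with median partner widths of 1770 bp and 6815 bp.

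The bam GKD interval with the most distal intervals lay inside mtgo (2L, 16561524 to 16605738, 44215 bp) and held 12 of them. Those were the only WT intervals in it and covered 34.4% of its length. An interval in CG9380 (2R, 25188095 to 25215066, 26972 bp) held 7 and was covered to 24.4%. One on 3L over Sema5c, CG17154 and vers (12077001 to 12116733, 39733 bp) held 6 distal intervals, 9 WT intervals in all and 3 of BEAF. Sema5c encodes a semaphorin, a class of guidance proteins. A further 5 lay in an interval of 29177 bp over bora and MYPT-75D on 3L, and 5 in one of 28000 bp at the right tip of 2R, over CG9380 and Kr among others. Kr encodes the gap gene transcription factor Krüppel.

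Among the largest ratios, 4 of the 5 belonged to mtgo, which encodes a fibronectin type III domain protein. The largest was 208, for a WT interval of 213 bp (2L, 16570587 to 16570799) inside the 44215 bp interval, and the next were 156, 145, 144 and 142. The one outside mtgo was an interval of 186 bp in CG9380. At the other extreme, an interval of 3674 bp in Pli (3R, 23885488 to 23889161) met a bam GKD interval of 183 bp, a ratio of 0.0498. Pli encodes the fly relative of the Pellino ubiquitin ligases. In Mkp3, a phosphatase gene of the MAP kinase pathway, the widths were 3260 bp and 191 bp (3L, 19078606 to 19081865). In fzr, which encodes an activator of the anaphase-promoting complex, they were 2110 bp and 171 bp. An interval of 2498 bp inside both fabp and sea met one of 189 bp, and one of 4062 bp between CG16721 and Act5C, over lncRNA:CR45668, met one of 311 bp. In all 5 a wide WT interval met a bam GKD interval of 171 bp to 311 bp.

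The widest distal intervals were broad in both lists. Pdp1, which encodes a bZIP transcription factor, held the widest (3L, 7849562 to 7857509), with 7948 bp in WT and 8297 bp in bam GKD. In psq, which encodes a BTB domain transcription factor, an interval of 7792 bp (2R, 10562326 to 10570117) met one of 7755 bp. In Rtnl1, a reticulon gene, 7642 bp in WT met 2 bam GKD intervals of 6183 bp in sum. In tai, a coactivator gene of ecdysone signalling, 7857 bp met 18361 bp. The remaining one, 7749 bp between CG17154 and vers, lay in the 39733 bp interval named above. The limit of 8000 bp left out an interval of 8084 bp in CG5953 and one of 9701 bp in simj, and 3 intervals in all that met every other condition.

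Distal intervals lay inside protein-coding genes in 1857 cases, or 74.9% (73.1 to 76.6), each wholly within a gene, and 88 lay inside 2 or more overlapping genes. The other 623 (25.1%) lay outside protein-coding genes. The sequence open to the rule, outside gene end windows and BEAF intervals, made up 84.4% of the 5 arms, and 66.3% of it lay inside protein-coding genes. The share inside genes was therefore above that of the open sequence on every arm, from 67.7% against 61.3% on 3L to 80.7% against 70.3% on X. It was below that of all Stwl WT intervals on the arms, of which 83.6% overlapped a protein-coding gene, with 92.4% of the constant ones with BEAF and 85.9% of those at gene ends. The annotation used gives no strand or exons, so introns and exons were not told apart. Intervals inside genes were wider in WT than those outside, with medians of 502 bp and 336 bp, and their bam GKD partners were alike, at 2453 bp and 2458 bp. The bam GKD partner was at least 2 times as wide for 65.1% (62.8 to 67.2) inside genes and 76.2% (72.7 to 79.5) outside.

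The nearest end of a protein-coding gene lay a median of 5141 bp away, with quartiles of 2321 bp and 11506 bp, and 202 distal intervals (8.15%) lay within 1000 bp of one. Closest to the limit of the window were an interval between CG43861 and AANATL3 at 502 bp and one in CenG1A at 503 bp. Just outside the rule were one beside Vha55 at 500 bp and one in bon at 498 bp. The width ratio did not follow this distance. Its median was 3.52 for the 516 intervals nearer than 2000 bp, 3.57 for the 552 from 5000 bp to below 10000 bp and 4.32 for the 248 from 20000 bp to below 50000 bp. Over the same classes the share of intervals with a partner reaching a gene end went from 52.5% to 12.7% and 2.02%.

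Of the 5 intervals inside genes that lay farthest from any gene end, 4 were in Myo81F, a very long myosin gene at the base of 3R. The farthest (3R, 1972054 to 1972416) lay 560516 bp from an end. Those 4 had nearly the same extent in both lists, with 363 bp against 376 bp, 887 bp against 866 bp, 1140 bp against 1126 bp and 222 bp against 212 bp. Outside genes, the farthest was an interval of 479 bp near the base of 2L (23451373 to 23451851), 137795 bp from Tim23, with 428 bp in bam GKD. A group of 3 lay between Pld and jing on 2R, 85268 bp to 107952 bp from a gene end.

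BEAF was absent by the rule, but its distance was free. The nearest BEAF interval lay a median of 14460 bp away, and 81 distal intervals (3.27%) had one within 1000 bp. For intervals at gene ends without BEAF the median distance was 10058 bp, with 2.94% within 1000 bp. The nearest other Stwl WT interval lay a median of 2596 bp from a distal interval. That nearest interval was itself distal in 1330 cases (53.6%), while distal intervals were 28.9% of the list. The rule selects by place, so near neighbours tend to meet it together, and grouping beyond that was not tested. Joined over gaps of up to 5000 bp, distal intervals made 1757 groups, of which 1302 were single intervals and 25 held 5 or more. The largest groups, of 7, lay in mtgo over 17441 bp and outside protein-coding genes on X (23113166 to 23148099).

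The arms differed in how many they held. There were 24.9, 18.2, 25.3, 17.9 and 25.9 distal intervals for each Mb of open sequence on 2L, 2R, 3L, 3R and X, so 2R and 3R had the fewest. They made up 36.2%, 30.0%, 39.6%, 32.6% and 36.5% of the constant intervals of these arms. The whole Stwl WT list had 66.6, 62.9, 63.2, 56.7 and 70.8 intervals per Mb of arm, with 2R close to 3L. The Stwl bam GKD list followed an order more like that of the distal intervals, with 108, 80.5, 105, 84.9 and 107 per Mb of arm. The median width ratio was 4.70, 3.29, 4.47, 2.70 and 4.80 in the same order, again lowest on 2R and 3R. By Mb of arm, the most crowded stretch was 14 to 15 Mb of 3L, with 56, which takes in stwl and bbg.

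Of 13842 protein-coding genes on the 5 arms, 968 held a distal interval (6.99%). Of these, 579 held 1 and 79 held 5 or more. The host genes were long, with a median length of 20354 bp against 1974 bp for genes that held none, as the rule requires: a gene must reach beyond both end windows to hold one. The share of genes that held one was 1.28% at 2 to 5 kb, 10.8% at 5 to 10 kb, 28.6% at 10 to 20 kb, 43.3% at 20 to 50 kb, 58.3% at 50 to 100 kb and 71.1% (60.1 to 80.5) at 100 kb or more. For each 10 kb of gene there were 0.287 distal intervals at 10 to 20 kb, 0.275 at 20 to 50 kb, 0.309 at 50 to 100 kb and 0.177 above that, so their density did not go on climbing with length. Of all genes of 10 kb or longer, 39.1% held one.

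Genes that held a distal interval often had Stwl WT at an end as well, in another interval. Among genes of 10 kb or longer, Stwl WT lay at an end of 80.1% (77.0 to 82.8) of 757 that held one and 55.5% (52.6 to 58.3) of 1179 that held none. For Stwl bam GKD the shares were 91.3% (89.0 to 93.2) and 66.1% (63.3 to 68.8), and for BEAF 35% (31.6 to 38.5) and 26.9% (24.4 to 29.5). The bam GKD interval at an end could be the partner of a distal interval, as 436 of 2136 partners reached a gene end window. The bam GKD share of host genes is therefore favoured in part by the rule. The remaining 151 long host genes had Stwl WT inside but at neither end. Stwl covered a median of 10.8% of the length of long host genes in WT and 25.4% in bam GKD, and coverage was higher in bam GKD for 630 of the 757, or 83.2%. Coverage was higher in bam GKD for 66.1% of all protein-coding genes of 10 kb or longer and for 30.4% of protein-coding genes of any length, in a list that covers 21.6 Mb against 11.7 Mb. A host gene holds Stwl in both lists by the rule, so its level of coverage is a description and was not set against that of other genes.

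**Figure D3:**
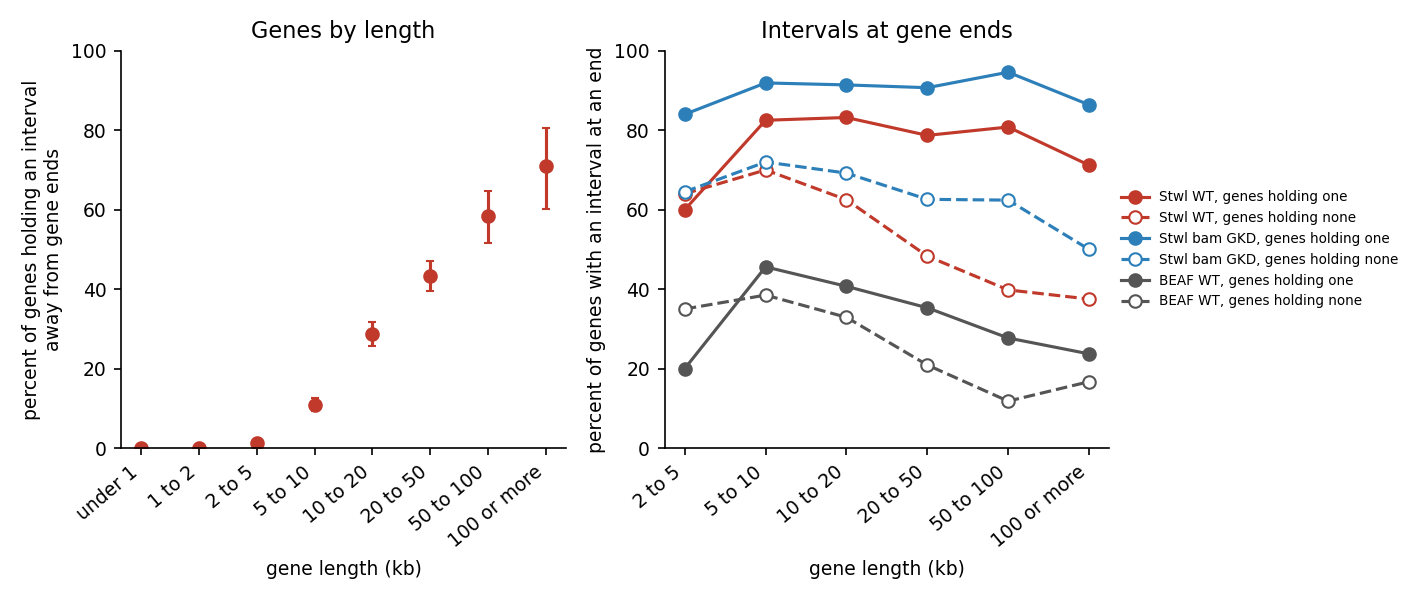
Left, percent of protein-coding genes that held a distal interval, by gene length (kb), with exact 95% intervals of counting error. Right, percent of genes with an interval of each list at an end, for genes that held a distal interval (filled, solid) and genes that held none (open, dashed), for length classes with at least 20 host genes. The share of host genes goes from 1.28% at 2 to 5 kb to 71.1% at 100 kb or more, and from 5 kb up filled points lie above open ones for all 3 lists. A bam GKD interval at an end can also be the partner of a distal interval.

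mtgo (2L, 16545016 to 16663218, 118203 bp) held the most, 24. Their widths ran from 190 bp to 4538 bp, with a median of 628.5 bp. Their median ratio was 24.5, and Stwl covered 25.9% of the gene in WT and 71.1% in bam GKD, with no BEAF inside it. The pattern was uneven along the gene: towards its higher coordinates, an interval of 1133 bp (16619925 to 16621057) met 198 bp in bam GKD, and one of 1045 bp met 946 bp. bbg (3L, 14412828 to 14536276), which encodes a PDZ domain protein, held 17, of 176 bp to 4344 bp. It begins 2888 bp beyond the end of stwl itself. A single bam GKD interval of 26228 bp (14424331 to 14450558) took in 5 of the 17, of 787 bp to 4344 bp, and coverage of bbg was 15.1% in WT and 62.9% in bam GKD. All 17 of bbg had the wider interval in bam GKD, with ratios from 1.48 to 38.3.

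mamo (X, 13846116 to 13990527), a BTB zinc finger gene needed for meiosis in the female germline, held 14. Unlike mtgo and bbg it also held 11 BEAF intervals, none of them touching a distal interval. In mamo 5 distal intervals of 224 bp to 2988 bp lay in 1 bam GKD interval of 12850 bp, and the ratios ran from 0.949 to 57.4. pyd (3R, 8827068 to 8931896), which encodes the fly relative of the junction protein ZO-1, held 13 with a median ratio of 1.57. Each of the 13 in pyd had a bam GKD interval of its own, of 225 bp to 6825 bp. The 2 intervals nearest its lower end, of 812 bp and 1072 bp, met only 225 bp and 303 bp, and coverage of pyd was 22.9% and 26.7%. Total coverage of pyd was thus close in both genotypes, although the ratios of its 13 distal intervals ran from 0.277 to 6.58. Coverage differed more in mtgo and bbg.

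**Figure D4:**
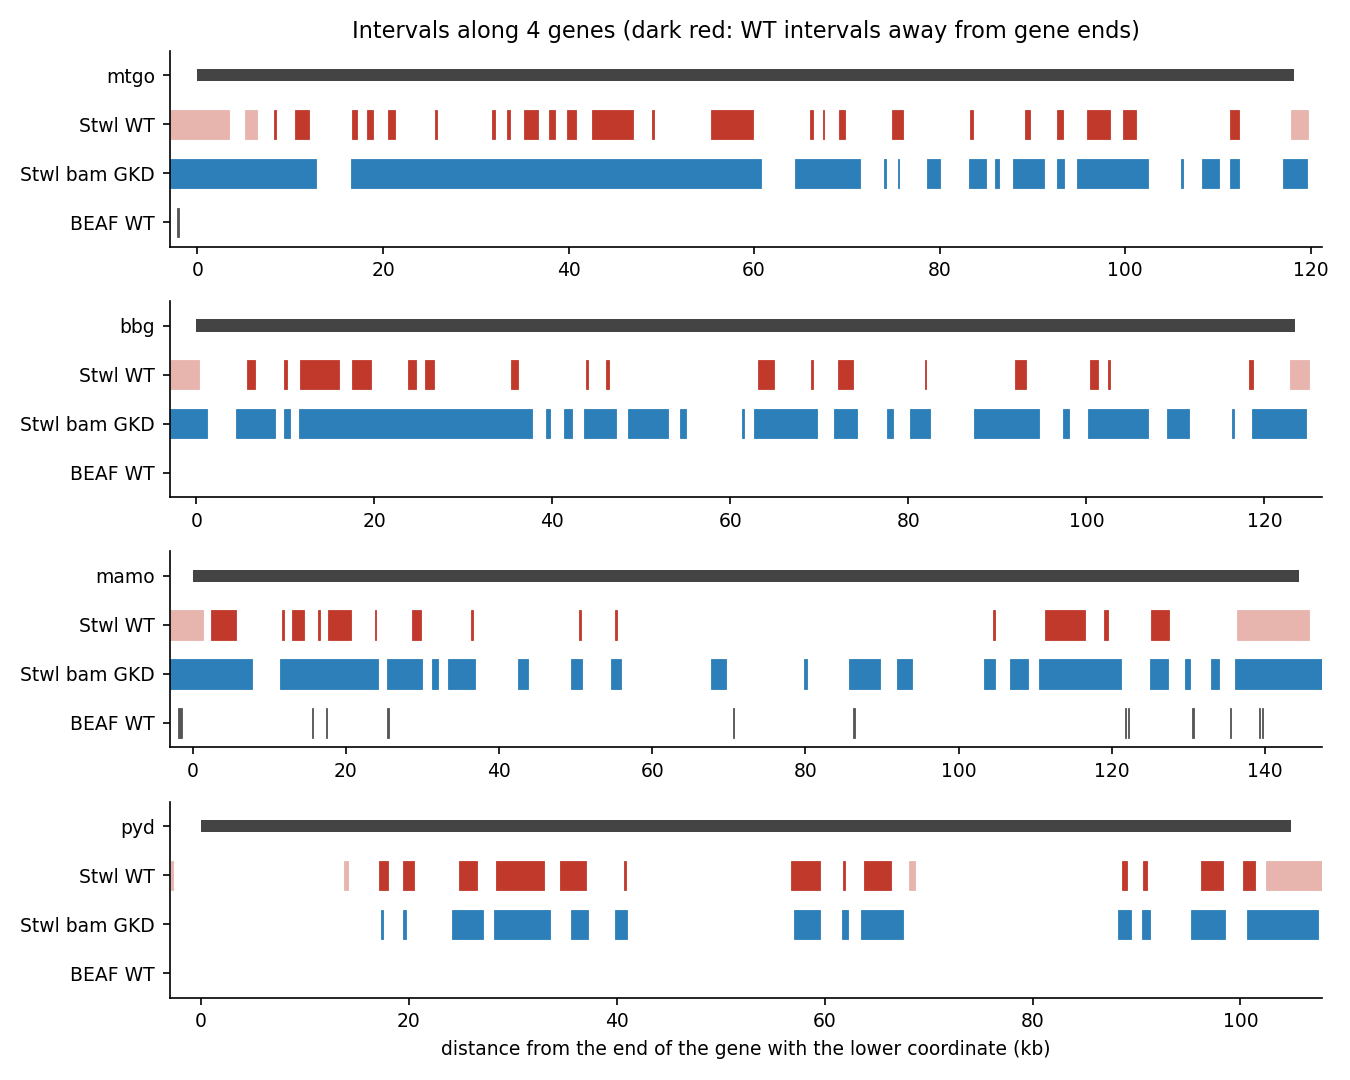
Intervals of the 3 lists along mtgo, bbg, mamo and pyd, by distance (kb) from the end of the gene with the lower coordinate, with the gene as a dark grey bar. Distal intervals are dark red, other Stwl WT intervals pale red, Stwl bam GKD blue and BEAF black. Several dark red bars lie above 1 blue bar in mtgo (up to 12) and bbg (up to 5), and each has a blue bar of its own in pyd.

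The other genes with the most were nmo, CG9380, Rbfox1, CG32816, bun and tai. nmo, a protein kinase gene, held 13 with a median ratio of 5.12. CG9380 (71691 bp) held 12, all in 2 bam GKD intervals, and 88.2% of it was covered in bam GKD against 21.2% in WT. Rbfox1 (3L, 10481412 to 10594012), whose RNA-binding product is needed for germline cysts to differentiate, held 11 of 200 bp to 2742 bp in 4 bam GKD intervals of 9273 bp to 16587 bp. Its median ratio was 19.2, its coverage 8.46% in WT and 67.4% in bam GKD, and it had no Stwl WT at its ends. CG32816 held 10 with a median ratio of 7.89. bun, which encodes a TSC22 family regulator of follicle cells, held 10 with a median of 10.9, and coverage of 46.9% and 85.0%. tai held 10 with a median of 10.3.

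Among the 79 genes with 5 or more distal intervals, the median ratio was 2 or more in 63, between 1/2 and 2 in 16 and 1/2 or less in 0. No like count over other host genes is given, and 67.9% of all distal intervals had a ratio of 2 or more. The 63 therefore cannot be read as particular to these genes. Coverage was higher in bam GKD in 78 of the 79. It was so for 81.3% of the 968 host genes and 83.2% of those of 10 kb or longer. Among all protein-coding genes the shares were 66.1% at 10 kb or longer and 30.4% at any length. Host genes hold Stwl in both lists by the rule, so the 78 are a description. The exception among the 79 was CG46385 on 2R, with 37.8% in WT and 21.6% in bam GKD and the lowest median ratio, 0.646. Next were Meltrin, a metalloprotease gene, at 0.803, psq at 0.995, Eip74EF at 1.07 and CG43739 at 1.21. The highest were MYPT-75D, a myosin phosphatase subunit gene, at 74.2, CG9380 at 52.8, gish, a casein kinase gene, at 31.2, Nipped-B at 28.7 and rdgA, a diacylglycerol kinase gene, at 25.98. These genes at the extremes were picked after their values were seen. In gish, 38.6% of the gene was covered in WT and 96.6% in bam GKD.

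Gene lists were examined by how many members held a distal interval, beside 6.99% of all protein-coding genes and 39.1% of those of 10 kb or longer. Length was not matched further, though the share rose with length above 10 kb as well. Regulators of RNA and splicing held one at 21 of 27 genes, and at 19 of the 20 of 10 kb or longer. After Rbfox1 came heph, the polypyrimidine tract binding protein gene, with 9, msi, the musashi gene, with 7, and how, a KH domain gene, with 6. In how, 3 of the 6 (206 bp, 371 bp and 613 bp) lay in a bam GKD interval of 21605 bp, and coverage was 12.4% in WT and 74.7% in bam GKD. In msi coverage was 14.2% and 54.2%, and in heph 10.8% and 26.02%. Only 1 of the 20 long genes of this list was thus without a distal interval.

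Genes of cell polarity and septate junctions held one at 13 of 23, and at 13 of the 15 long ones. Besides pyd they were led by Fas3 with 7, ed with 6 and dlg1 with 5. Fas3, an adhesion protein of follicle cells among others, had narrow intervals only, of 176 bp to 364 bp, and bam GKD partners of 555 bp to 10107 bp. Its coverage was 3.14% and 44.9%. dlg1, a scaffold and tumour suppressor gene, had 26.9% and 42.1%. Genes of ring canals and the actin cytoskeleton held one at 12 of 24 (11 of 13 long). Msp300, which encodes a giant nesprin, held 6 with a median ratio of 4.54. hts, whose adducin products build the fusome and the ring canals, held 2, of 3783 bp and 4636 bp, against 4366 bp and 4580 bp in bam GKD. Moe and capu, a moesin and a formin gene, held 2 each.

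Chromatin and boundary protein genes held one at 7 of the 26 matched from 34 symbols, including all 6 matched genes of 10 kb or longer. psq held 7 with a median ratio of 0.995 and coverage of 32.5% and 37.7%, and lola, its neighbour and also a BTB gene, held 6 with 1.98. Nipped-B, the gene of the cohesin loader, held 6 with 28.7. Its 6 intervals, of 240 bp to 5142 bp, lay in 3 bam GKD intervals of 7669 bp to 11276 bp that cover 76.6% of the gene. Coverage of lola was close in both lists, at 30.9% and 33.1%, and that of Nipped-B was 23.2% in WT.

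**Figure D5:**
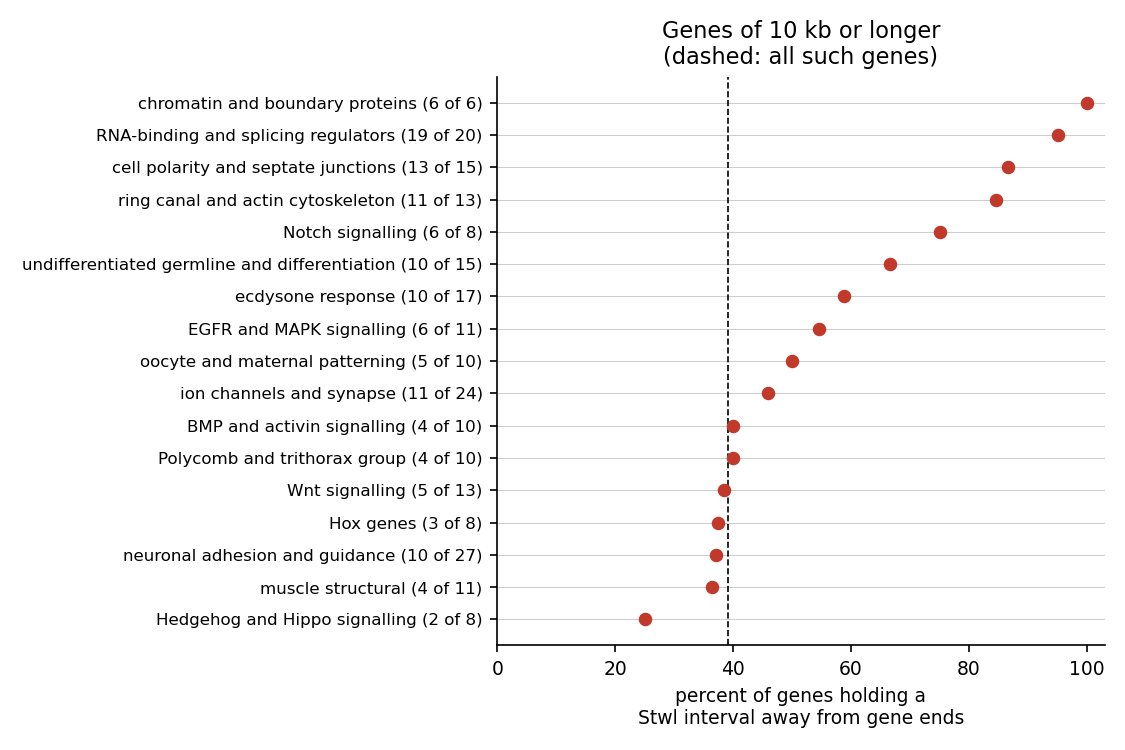
Percent of genes of 10 kb or longer that held a distal interval, for each list with at least 5 such genes, with counts beside the name and a dashed line at 39.1% for all such genes. The lists run from 6 of 6 chromatin and boundary genes and 19 of 20 RNA regulators down to 2 of 8 Hedgehog and Hippo genes. Gene length above 10 kb was not matched between lists.

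Of the genes of germline stem cells and their differentiation, 10 of 29 held one (10 of 15 long). After Rbfox1 came pum, which encodes a translational repressor that keeps stem cells, with 8 of 176 bp to 6320 bp and a median ratio of 2.37. brat, which encodes a partner of Pumilio in repression, went the other way. Its 2 intervals, of 2626 bp and 2515 bp (2L, 19157501 to 19160126 and 19164225 to 19166739), met 223 bp and 318 bp in bam GKD, and coverage was 39.7% in WT and 21.3% in bam GKD. vas, the germline helicase gene, held 1 of 226 bp. Of oocyte and maternal patterning genes 5 of 31 held one (5 of 10 long), led by baz with 4 and par-1 with 3, genes of the polarity system. In par-1 the widths were 2910 bp, 2133 bp and 336 bp in WT against 1993 bp, 574 bp and 1428 bp. Of piRNA pathway genes 3 of 27 held one, qin with 3, AGO3 with 2 and vas. The 3 of qin, of 200 bp to 234 bp, lay in 1 bam GKD interval of 5399 bp.

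Genes of the ecdysone response held one at 10 of 19 (10 of 17 long), and with 49 intervals the list's median ratio was 2.89. Eip74EF, an ETS factor gene, held 8 of 313 bp to 3629 bp, with ratios of 0.442 to 2.72 and coverage of 21.7% and 29.2%. ftz-f1, a nuclear receptor gene, held 7 with a median of 3.51, and Eip93F, a gene of steroid-triggered cell death, held 6 with 3.23. EcR, the receptor gene, held 6, of 176 bp, 1809 bp, 180 bp, 3420 bp, 1327 bp and 2256 bp. Their bam GKD widths in that order were 754 bp, 732 bp, 1161 bp, 3147 bp, 3039 bp and 1992 bp. In EcR 3 were thus wider in bam GKD and 3 in WT.

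Among signalling lists, Notch genes held one at 6 of 16 (6 of 8 long), led by mam, a Notch coactivator, with 8, and kuz, a protease that cleaves Notch, with 4. EGFR and MAPK genes held one at 7 of 23 (6 of 11), with 6 in rl, the ERK gene, and 5 in cic. Wnt genes held one at 5 of 22 (5 of 13) and BMP and activin genes at 4 of 21 (4 of 10), with 3 each in sgg, fz, shn and Dad. In sgg, the GSK3 gene, widths of 1364 bp and 2026 bp met 424 bp and 1213 bp, and 430 bp met 2529 bp. Hedgehog and Hippo genes held one at 2 of 18 (2 of 8), kibra with 3 and sd with 1. Their shares of long genes ran from 25% to 75%, on either side of 39.1%.

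The neuronal, channel and synapse, muscle, Hox, and Polycomb and trithorax lists were near the share of all long genes, at 36.4% to 45.8%. Neuronal adhesion and guidance genes held one at 10 of 28 (10 of 27 long, 37.0%), led by Fas3 and Lar, and ion channel and synapse genes at 11 of 25 (11 of 24, 45.8%), led by dlg1 and Snap25. Muscle structural genes held one at 5 of 22 (4 of 11). Of the 8 Hox genes Abd-B, Antp and Ubx held 1 each, of 550 bp, 431 bp and 350 bp, and in each gene it was the only Stwl WT interval over the gene. Polycomb and trithorax group genes held one at 4 of 28 (4 of 10), among them osa with 2, whose widths of 1472 bp and 1166 bp met 202 bp and 1139 bp. None of 30 nucleoporin genes and none of 18 yolk, vitelline and chorion genes held one. Only 2 nucleoporin genes reach 10 kb, and none of the yolk, vitelline and chorion genes. The genes stwl, bam and BEAF-32 held none.

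Genes of non-coding RNAs lay under 179 distal intervals, or 7.22% (6.23 to 8.31), against 8.97% (8.37 to 9.60) of all Stwl WT intervals on the arms. Their ends were not avoided by the rule. Long non-coding RNA genes lay under 125, antisense RNA genes under 20, tRNA genes under 32, miRNA genes under 6 and snoRNA genes under 3, while no snRNA gene did. Outside protein-coding genes 12% of distal intervals lay over a non-coding RNA gene. The 32 intervals over tRNA genes covered 64 of 290 such genes, since several genes often lay under 1 interval. The widest over tRNA genes lay inside hts (2R, 19411277 to 19415912, 4636 bp), over tRNA:Ser-CGA-1-4, tRNA:Val-AAC-2-1, tRNA:Val-AAC-2-2 and snoRNA:hts-a. One of 3561 bp between snky and caps covered 3 genes of tRNA:Pro-AGG-1 and tRNA:Leu-CAA-2-2, and one of 3294 bp beside noc covered 3 of tRNA:Gly-GCC-1.

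The 6 miRNA genes under distal intervals were mir-967, mir-100, mir-14, mir-4978, mir-276a and mir-927. mir-4978 lay inside mam, in an interval of 6194 bp (2R, 14003774 to 14009967) that met 10408 bp in bam GKD. mir-14, a miRNA of cell death and fat metabolism, lay under 3843 bp (2R, 9551235 to 9555077), against 2301 bp in 2 bam GKD intervals. mir-967 lay inside bun under 2899 bp and mir-276a under 2847 bp, within bam GKD intervals of 12800 bp and 10730 bp.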

How the data were processed

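CUT&RUN lists of occupied intervals were used for 3 ovary samples, each placed in its group by its title. The authors deposited coordinates only, on dm6, per the labels, with no score, strand or counts. Per the submitters' processing notes, the tools were MACS2 2.1.0, Bowtie2 2.2.8, deepTools 3.2.1, Trim Galore 0.6.6, SAMtools 1.9 and FastQC 0.11.8. No source used here gives their roles and settings, the control, or any pooling of duplicates. Neighbouring intervals within each Stwl list lay at least 1001 bp apart. Genes came from the RefSeq table of Release 6 plus ISO1 MT, the assembly of dm6, which gives no strand, exons or sequence. Open sequence was taken up to the last base that a gene or Stwl interval reaches on each arm.

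Overlaps, widths and distances were computed with Python 3.11.15, pandas 2.3.3, numpy 2.4.6 and scipy 1.17.1, with 1-based coordinates. The rule was tested on simulated intervals. No test was run, because each group had 1 list. Members and gene lists were chosen with earlier results of these data known. Of 496 symbols in 20 lists, 31 were not matched to genes on the 5 arms and were left out. Counts for a list therefore cover its matched genes only, 26 of 34 symbols for chromatin and boundary proteins and 27 of 28 for RNA regulators. A planned split into exons and introns was not run. Named were the widest intervals, the extremes of ratio and distance, the 10 genes with most intervals, the 10 widest over small RNA genes and up to 4 genes of each list. The 5 bam GKD intervals with most distal intervals, and the genes at the extremes of median ratio, were chosen after their values were seen.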

Additional observations from a re-analysis of the deposited data

How the results depend on the processing

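Of 86 recomputed values over 16 settings, 70 stayed within the 95% interval of the value reported (for the number of intervals, within 1.5 times) and 16 moved. With centres within 250 bp, 887 intervals were left in place of 2480, with median widths of 383 bp in WT and 816 bp in bam GKD, and the bam GKD partner was at least 2 times as wide for 40.6% in place of 67.9%. The cause was not tested, and the other classes of constant interval were not recomputed under any of the 16 settings. Avoiding ends of genes of every type gave 77.2% inside protein-coding genes and 2.58% over non-coding RNA genes, and a distance of up to 500 bp to such genes gave 9.76%. The following settings were chosen after seeing the data. Cutting the bam GKD list to the number of WT intervals by width (the widest kept) gave a median bam GKD width of 2953 bp and a share of 76.3%. Leaving out bam GKD intervals of 8000 bp or wider gave 1841 bp and 61.8%, partners clear of gene ends only gave 1769.5 bp and 59.5%, and 1 interval for each bam GKD interval gave 1935 bp and 62.2%, with 483 bp in WT. The split into exons and introns was not run, because the gene table holds no exons. Under every setting of the rule that was run, the median width was larger in bam GKD than in WT. These settings all picked from the WT list, where the rule favours narrow intervals and wide bam GKD partners. The cut by width kept the widest bam GKD intervals, so it could not lower the partner widths. No paired analysis was possible because each group had 1 list. Depth is unknown, and its part in the widths was not tested.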
